A study of Mus musculus with 8 samples.

Results

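Tyrosine is broken down in the liver by 5 enzymes acting in turn, encoded by Tat, Hpd, Hgd, Gstz1 and Fah, and these genes were followed in the livers of Fah-/- mice. They were chosen by symbol as the steps from tyrosine to the inactivated enzyme, and all 5 were found among the 22504 gene identifiers of the deposited expression table. All 5 had an FPKM of at least 1 in every one of the 8 samples, and were therefore among the 10244 genes tested. FPKM relates the fragments of a gene to its length and to all fragments mapped, so levels of different genes can be set side by side per length.

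The amino group of tyrosine is taken off by tyrosine aminotransferase (Tat), and the product is oxidized to homogentisate by hydroxyphenylpyruvate dioxygenase (Hpd). Homogentisate dioxygenase (Hgd) opens the ring, maleylacetoacetate isomerase (Gstz1) turns the product over, and fumarylacetoacetate hydrolase (Fah) splits it into fumarate and acetoacetate. Without Fah, fumarylacetoacetate and its derivatives build up and injure hepatocytes. NTBC blocks Hpd, and thereby keeps these compounds from being made.

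All 8 samples were from Fah-/- mice on the 129S4 background, and no wild-type or fully NTBC-treated sample was analysed here. NTBC at 7.5 mg/L in the drinking water was the standard dose of the colony. In moderate chronic liver injury (MCLI), NTBC was lowered to 2.5% of the curative dose, for 8 weeks in the C 8w group (3 samples) and for 12 weeks in the C 12w group (2 samples). In the C 8w + A 4w group (3 samples), 8 weeks of MCLI were followed by 4 weeks of severe acute liver injury (SALI), in which NTBC was removed. The labels give the tissue of C 12w as tumor and that of the other groups as liver. They give no age. C 12w thus differed from C 8w in both the length of treatment and the tissue, which cannot be told apart. The question put to these genes was how the pathway whose last enzyme is missing was expressed when its inhibitor was reduced, and when it was then withdrawn.

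The 13 hepatocyte markers other than Alb summed to between 16690.0 and 39430.0 FPKM in every sample, and 9 of 10 retina markers were below 1 in all samples, 2 of them at 0 in all 8, although the labels' extraction text speaks of retinas. Alb, the albumin gene, was listed at 0 in all C 8w and C 12w samples and not in C 8w + A 4w, so a 0 is given here only as listed. It was 1 of 6 genes at 0 there and at 1 FPKM or more in every C 8w + A 4w sample, among them the mitochondrial gene mt-Co1 and the ribosomal protein gene Rpl23a, and together these took 6.67% to 7.35% of the summed FPKM in C 8w + A 4w. The reverse, at 0 in C 8w + A 4w only, held for 1 gene. The sample codes of C 8w and C 12w belong to one series and those of C 8w + A 4w to another, and code series and group cannot be told apart in either comparison with C 8w + A 4w. Sequence shared between genes was measured over windows of 50 bases, and in 3911 of 10229 tested genes more than 2% of the windows occurred in another gene. In Tat, Hpd, Hgd and Fah none did, and in Gstz1 9.39% did. FPKM keeps no read numbers, so the depth behind each value is unknown.

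The stretches of 250 bases before the start sites of Tat, Hpd and Hgd are shown because Hpd and Hgd had the highest correlation over the samples of any pair of the 5 genes, and Tat had the widest spread within groups, as described below. They are RefSeq sequences on build GRCm38.p6, which is not the build named for the deposited files. Capitals mark matches on either strand to 1 of 6 motifs searched. These were the TATA box TATAAA, the CCAAT box, a part of the HNF1 site with the letters GTTAAT, the C/EBP motif TTGCNNAA, a part of the glucocorticoid receptor site with the letters TGTTCT, and the FOXA motif TGTTTAC. No matches overlapped one another.
Tat, chr8:109990186-109990435, plus strand: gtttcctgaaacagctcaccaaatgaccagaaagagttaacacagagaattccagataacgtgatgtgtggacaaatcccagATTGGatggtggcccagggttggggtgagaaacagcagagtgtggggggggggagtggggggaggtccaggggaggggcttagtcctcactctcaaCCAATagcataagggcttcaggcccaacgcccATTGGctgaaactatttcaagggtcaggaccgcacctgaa
Hpd, chr5:123182724-123182973, minus strand: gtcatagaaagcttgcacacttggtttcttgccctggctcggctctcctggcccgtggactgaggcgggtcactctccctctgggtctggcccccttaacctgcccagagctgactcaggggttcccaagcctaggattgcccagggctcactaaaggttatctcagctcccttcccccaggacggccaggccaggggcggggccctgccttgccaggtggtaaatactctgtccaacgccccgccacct
Hgd, chr16:37579903-37580152, plus strand: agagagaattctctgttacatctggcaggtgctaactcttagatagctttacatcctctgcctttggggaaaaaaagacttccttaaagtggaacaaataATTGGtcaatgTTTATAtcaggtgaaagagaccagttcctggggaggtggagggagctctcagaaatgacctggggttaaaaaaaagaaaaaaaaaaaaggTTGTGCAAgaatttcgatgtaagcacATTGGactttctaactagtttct
The Tat stretch held 3 CCAAT matches, and the Hgd stretch held 2, with 1 TATAAA match on the opposite strand and 1 C/EBP match between them. The Hpd stretch held none of the 6 motifs, nor did that of Fah, and each of the 2 start sites of Gstz1 had 1 CCAAT match. Of all 32851 stretches of this length, 33.8% held the CCAAT box, 12.4% the TATA box, 9.56% the C/EBP motif, 16.1% the glucocorticoid receptor motif, 6.43% the HNF1 motif and 3.17% the FOXA motif. The CCAAT box was in 4 of the 6 stretches of the 5 genes, the TATA box and the C/EBP motif were in 1 each, and the other motifs were in none. G and C made up 38.8% of the Hgd stretch, 53.6% of the Tat stretch, 62.8% of the Hpd stretch and 64.4% of the Fah stretch, against a median of 52.4%. A match describes the letters only, and no binding was measured.

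Fah, the gene inactivated in these mice, was listed above 0 in all samples. Its FPKM was 16.8, 16.5 and 15.6 in C 8w, then 5.02, 6.11 and 6.36 in C 8w + A 4w, with 14.4 and 13.5 in C 12w. The C 8w + A 4w samples were the lowest, C 12w lay between, and no groups overlapped. A value per gene does not show which exons the reads came from, the sources used here do not describe the allele, and all samples carry it, so Fah checks no label. The means were 16.3 ± 0.617 (SD, n = 3), 5.83 ± 0.716 (n = 3) and 14.0 ± 0.632 (n = 2). Of all listed genes, 72.9% to 89.3% were below Fah in a sample, against 96.6% to 99.7% below Tat and 98.7% to 99.7% below Hpd.

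Tat, the enzyme that starts the pathway, had an FPKM of 388.1, 271.4 and 228.0 in C 8w, then 238.7, 73.4 and 98.02 in C 8w + A 4w, with 664.7 and 236.4 in C 12w. The highest sample was C 12w replicate 2 and the lowest C 8w + A 4w replicate 2, and every group overlapped the others. The highest value was 1.70 times the lowest in C 8w, 3.25 times after SALI and 2.81 times in C 12w. On the log2(FPKM + 1) scale, the range of Tat was exceeded by that of only 2.0%, 0.7% and 2.8% of the tested genes in the 3 groups. The means were 295.8 ± 82.8, 136.7 ± 89.2 and 450.6 ± 303 (SD, n = 3, 3 and 2).

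Hpd, the target of NTBC, was at 660.5, 550.8 and 603.8 FPKM in C 8w, then 202.3, 227.7 and 228.8 in C 8w + A 4w, with 372.8 and 209.1 in C 12w. Every C 8w sample was above every other sample, and the C 12w values overlapped with the C 8w + A 4w values. The means were 605.0 ± 54.8, 219.6 ± 15.0 and 291.0 ± 116 (SD, n = 3, 3 and 2). Hgd, which acts next, was at 300.2, 275.9 and 286.3 FPKM in C 8w, then 122.5, 168.1 and 146.5 in C 8w + A 4w, with 250.1 and 142.0 in C 12w. The order of the samples resembled that of Hpd, with C 8w above both other groups and those overlapping. The means were 287.4 ± 12.2, 145.7 ± 22.8 and 196.0 ± 76.4 (SD, n = 3, 3 and 2).

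Gstz1, which also belongs to the glutathione transferase family, was at 262.0, 229.4 and 260.2 FPKM in C 8w, then 144.4, 167.8 and 162.5 in C 8w + A 4w, with 298.2 and 211.9 in C 12w. All C 8w + A 4w samples were below all others, and the C 12w pair enclosed the C 8w samples. The means were 250.5 ± 18.3, 158.2 ± 12.3 and 255.0 ± 61.1 (SD, n = 3, 3 and 2). The opposite strand of the locus holds Pomt2, which was between 2.81 and 4.26 FPKM, and Hpd overlaps Psmd9 on the opposite strand, which was between 11.6 and 34.7. Hgd overlaps the antisense gene Gm46559, Gstz1 the antisense gene Gm6566, and Hpd the lincRNA Gm26745 on its own strand. Strand use in the counting is not given in the sources used here, so reads of the antisense pairs cannot be told apart by strand. Those of Hpd and Gm26745 could not be told apart by strand in any case. Of the windows used for shared sequence, none of Hpd or Hgd occurred in another gene, against 9.39% of those of Gstz1.

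**Figure D1:**
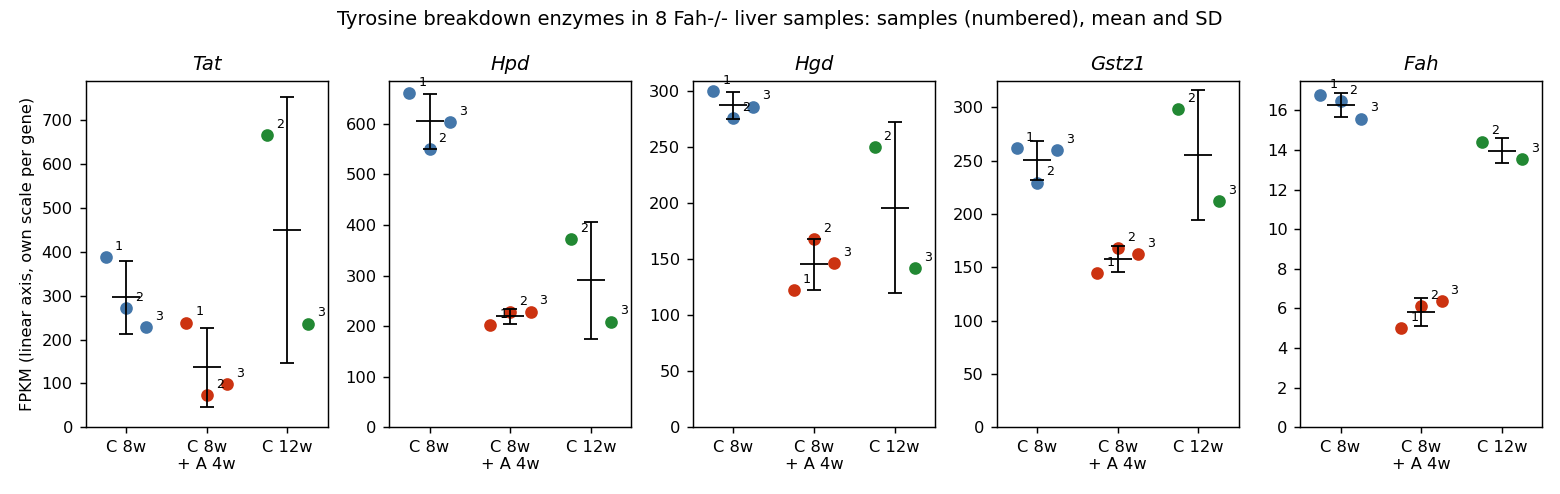
FPKM of each tyrosine breakdown enzyme (vertical axes from 0, own scale per gene) by group, with samples as points labelled by replicate number and the mean and SD as bars. The Hpd points run from 550.8 to 660.5 for C 8w and from 202.3 to 228.8 for C 8w + A 4w, while Tat ranged from 236.4 to 664.7 within C 12w.

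In C 8w the order of mean levels was Hpd, Tat, Hgd, Gstz1 and Fah. Hpd was above Tat, Hgd above Gstz1 and Gstz1 above Fah without overlap, whereas Tat and Hgd overlapped. After SALI, in C 8w + A 4w, the order was Hpd, Gstz1, Hgd, Tat and Fah, and the 3 genes in the middle overlapped. Tat led in C 12w, and its samples and those of Hpd, Gstz1 and Hgd overlapped one after the other. Fah was last in every sample. The 5 genes together took from 0.376% to 0.430% of the summed FPKM in C 8w and from 0.164% to 0.179% in C 8w + A 4w, and C 12w replicates 2 and 3 had 0.440% and 0.250%.

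Withdrawal of NTBC after MCLI was addressed first by C 8w + A 4w against C 8w, groups that also differ in total time. Expression was compared as log2(FPKM + 1) in a limma fit of all 3 groups, and a change was called at an adjusted p under 0.05 (Benjamini-Hochberg, over all genes tested). Hpd, Fah, Hgd and Gstz1 fell, and Tat did not pass the test. The call was made for 4 of the 5 genes, all lower, beside 39.4% of all tested genes called in either direction and 14.1% called lower. The median log2 fold change was -1.26 over the 5 genes and 0.12 over all tested genes. In 4 of the 5, every C 8w + A 4w sample was below every C 8w sample, as in 22.3% of all tested genes. Hpd fell to 0.363 of its C 8w mean FPKM, with a log2 fold change of -1.46 ± 0.21 (SE) and an adjusted p of 0.00116. Fah fell to 0.358, at -1.34 ± 0.11 and an adjusted p of 4.77e-05. Both stayed called with the same sign under all 19 alternative settings, which are described in the closing section. Hgd fell to 0.507 of its mean (-0.99 ± 0.22, adjusted p = 0.00791), and Gstz1 to 0.632 (-0.66 ± 0.16, adjusted p = 0.0121). The call of Gstz1 ended without C 8w replicate 1 (adjusted p = 0.0526).

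Tat had a mean ratio of 0.462 and a log2 fold change of -1.26 ± 0.50, with an adjusted p of 0.0736. Its fold change was close to that of Fah, with a larger standard error. Without C 8w + A 4w replicate 1, whose FPKM lay within the C 8w range, the value was -1.76 and the adjusted p 0.0213. The adjusted p was 0.0303 without C 12w replicate 2 and 0.0307 without C 12w replicate 3, so the call of Tat depended on samples that were not compared and only add to the estimated spread. With only the compared groups in the fit it was likewise 0.0307, and after scaling to the total FPKM it was 0.0483, and in both settings all 5 enzymes were called lower.

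Of the hepatocyte markers, 7 of 13 tested fell and 1 rose in the same comparison, with a median of -0.80, beside 39.4% of all tested genes called and 14.1% called lower. Their sums without Alb were 21720.0 to 27830.0 FPKM in C 8w and 16690.0 to 20260.0 in C 8w + A 4w. When each sample was scaled to the median of these markers, a setting chosen after the values were seen, Hpd was at -0.66 and Fah at -0.55 and both were still called lower, Hgd was at -0.19 (adjusted p = 0.387), Gstz1 at 0.14 (adjusted p = 0.441) and Tat at -0.46 (adjusted p = 0.303). In whole tissue, fewer hepatocytes and less RNA per hepatocyte cannot be told apart. Markers of bile duct summed to 9.51 to 15.2 FPKM in C 8w and 26.3 to 32.8 in C 8w + A 4w, or without Spp1 to 1.26 to 3.41 and 8.02 to 9.76, with 1 of 4 tested genes called, higher. Those of macrophages summed to 143.2 to 173.9 and 110.9 to 403.5, with none of 7 called by limma and 0 at an unadjusted p under 0.05, and those of endothelium to 41.6 to 45.5 and 19.5 to 36.9, with 3 of 6 lower and 1 higher. Of 6 stellate cell and fibroblast markers tested, 1 was called, lower. The part of these lists in the fall of the 4 enzymes was not tested.

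The comparison of C 8w + A 4w with C 12w sets groups of equal total time beside each other, 1 of them labelled tumor. Tat, Gstz1 and Fah fell and Hpd and Hgd did not pass the test, that is 3 of 5, all lower, where 32.8% of all tested genes were called and 15.4% were called lower. The median was -0.67 over the 5 genes and 0.01 over all tested genes. Gstz1 and Fah, 2 of the 5, were lower in every C 8w + A 4w sample than in every C 12w sample, as were 24.2% of all tested genes. Fah was at -1.14 ± 0.12 (adjusted p = 0.000308) and stayed called under all 19 alternatives. Gstz1 was at -0.67 ± 0.18 (adjusted p = 0.0214). Tat was at -1.72 ± 0.55 (adjusted p = 0.044) although its groups overlapped, since 238.7 FPKM in C 8w + A 4w replicate 1 exceeded 236.4 in C 12w replicate 3. Of 6 stellate cell and fibroblast markers tested in this comparison, 2 were higher (Lrat at 1.32 and Dcn at 1.13) and 1 lower (Col3a1 at -2.69). None of the bile duct, macrophage and endothelial markers was called, and the part of these lists was not tested. Of the 13 hepatocyte markers tested, 9 were lower and none higher, with a median of -0.75. Their sums without Alb were 39430.0 and 21890.0 FPKM in C 12w beside 16690.0 to 20260.0 in C 8w + A 4w. After scaling to these markers, Fah was at -0.49 (adjusted p = 0.0351), Gstz1 at -0.024 (adjusted p = 0.916) and Tat at -1.08 (adjusted p = 0.0599).

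These calls rested on few samples. That of Tat ended in 11 of 19 alternatives, among them the omission of any C 8w sample (adjusted p 0.0604, 0.0688 and 0.0636 without replicates 1, 2 and 3), of C 8w + A 4w replicate 2 (0.109) or 3 (0.116), and of C 12w replicate 2, where its value was -0.97 (0.203). That of Gstz1 ended in 5 of 19, which were hepatocyte marker scaling as given above, the fit of only the groups compared (0.0733), and the omission of C 8w + A 4w replicate 1 (0.0615) or 3 (0.0542) or of C 12w replicate 2 (0.0696). Hpd was at -0.35 ± 0.24 (adjusted p = 0.296) and Hgd at -0.38 ± 0.24 (adjusted p = 0.259). Both turned slightly positive without C 12w replicate 2, to 0.07 and 0.02, and both were called lower without C 12w replicate 3, at -0.76 and -0.79.

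A longer course of MCLI, with tumor tissue at its end, was addressed by C 12w against C 8w, which shares its C 8w samples with the first comparison. Hpd fell and the other 4 enzymes did not pass the test. This was 1 of 5 genes, lower, where 19.2% of all tested genes were called and 6.98% were called lower. The median was -0.21 over the 5 genes and 0.12 over all tested genes. Hpd was at -1.11 ± 0.24 with an adjusted p of 0.0174. The call ended in 4 of 20 alternatives. It did so without C 8w replicate 1 (0.0662) or replicate 3 (0.0571) and with only the compared groups in the fit (0.051). It also ended with the replicate block described in the closing section (0.238). Hgd was at -0.61 ± 0.24 (adjusted p = 0.106) and Fah at -0.21 ± 0.12 (adjusted p = 0.25), and with Hpd these 3 genes had both C 12w samples below all C 8w samples, as had 19.6% of all tested genes. Without C 12w replicate 2, Hgd was called lower, at -1.01 (adjusted p = 0.00577). Of the bile duct markers, 3 of 4 tested rose, with a median of 1.93, and of the endothelial markers 3 of 6 fell, with sums of 41.6 to 45.5 FPKM in C 8w and of 28.2 and 23.4 in C 12w. Of the 13 hepatocyte markers tested, 1 was called, higher, and the median was 0.23. Of 6 stellate cell and fibroblast markers tested, 1 rose and 1 fell. The 6 cell division genes, Mki67 among them, reached 1 FPKM in too few samples to be tested and summed to 1.32 to 2.23 FPKM in C 8w, to 0.830 to 2.29 in C 8w + A 4w, and to 20.8 and 33.3 in C 12w. After hepatocyte marker scaling Hpd was at -0.955 and still called (adjusted p = 0.0151), and the part of the other lists in its fall was not tested.

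Gstz1 was at 0.01 ± 0.18 (adjusted p = 0.978) and Tat at 0.46 ± 0.55 (adjusted p = 0.575) in the same comparison. Neither sign was stable, since without C 12w replicate 2 the values were -0.24 and -0.29. Side by side, with the C 8w samples in common, Hpd was at -1.46 after SALI and -1.11 in C 12w, Hgd at -0.99 and -0.61, Gstz1 at -0.66 and 0.01, Fah at -1.34 and -0.21, and Tat at -1.26 and 0.46. For Gstz1, Fah and Tat the direct comparison of the later groups passed the test, with the limits given above, and for Hpd and Hgd it did not.

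**Figure D2:**
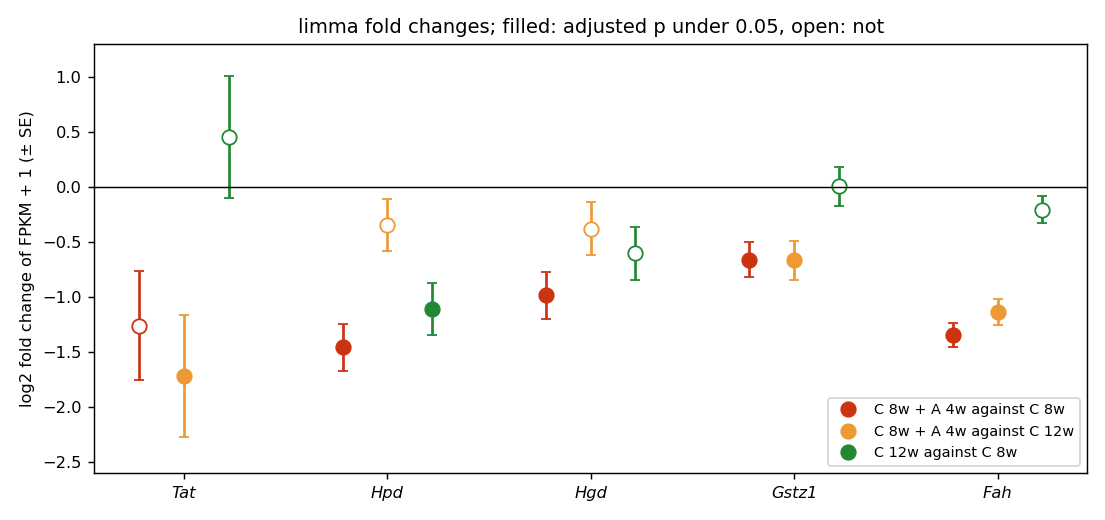
Log2 fold changes of FPKM + 1 (vertical axis) with their SE for the 5 enzymes in the 3 comparisons of the limma fit, filled where the adjusted p was under 0.05. Hpd and Fah are at -1.46 and -1.34 in C 8w + A 4w against C 8w, and Fah is at -0.21 (open) in C 12w against C 8w.

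The 2 C 12w samples differed in most of the pathway. All 5 genes were higher in replicate 2 than in replicate 3, as were 39.2% of all tested genes, whose median difference was -0.11 on the log2(FPKM + 1) scale. The difference was 1.49 for Tat, 0.83 for Hpd, 0.81 for Hgd, 0.49 for Gstz1 and 0.09 for Fah. These values fell in the order of the steps, with Hpd and Hgd nearly equal, and the order was not tested. Against the C 8w mean, Hpd was at -0.69 in replicate 2 and -1.52 in replicate 3. Hgd was at -0.20 and -1.01, Gstz1 at 0.25 and -0.24, and Tat at 1.20 and -0.29. Among 30 enzymes that break down other amino acids, 22 were also higher in replicate 2, as were 12 of the 13 hepatocyte markers tested, while the 4 bile duct markers tested were all lower. The genes for other uses of tyrosine were lower in replicate 2 in 4 of 4 cases, and of 14 glucocorticoid- and fasting-related genes, a list that bears on Tat, 10 were lower there, with a median difference of -0.65. The bile duct markers summed to 28.2 FPKM in replicate 2 and 338.6 in replicate 3, most of it from Spp1, and without that gene to 5.95 and 28.0. With 2 samples no test of this difference is possible, and its relation to the share of hepatocytes was not tested.

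**Figure D3:**
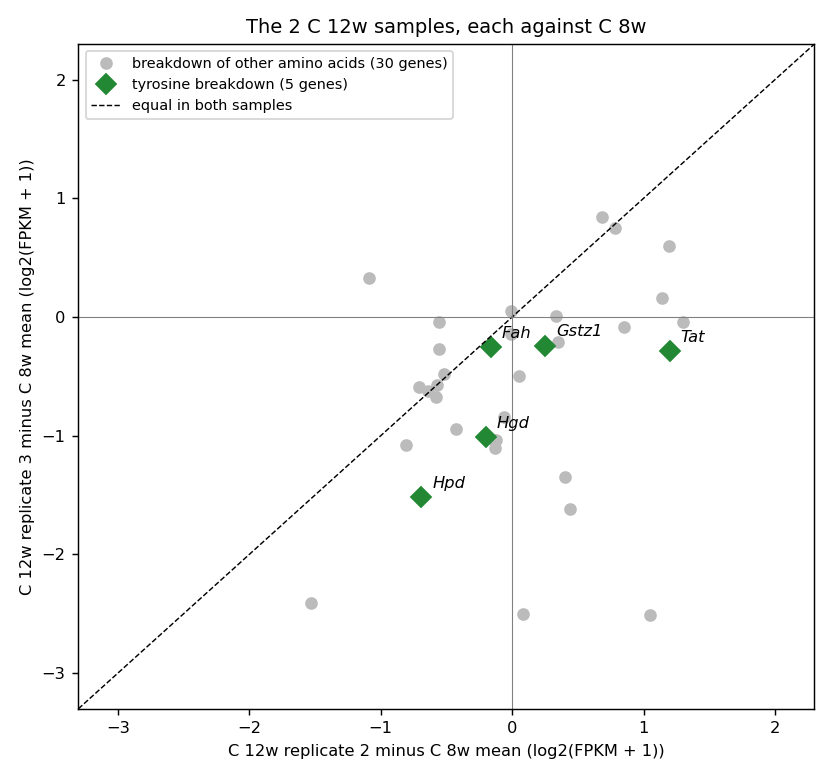
Each C 12w sample against the C 8w mean on the log2(FPKM + 1) scale, replicate 2 on the horizontal and replicate 3 on the vertical axis, for the 5 tyrosine breakdown enzymes (diamonds) and 30 enzymes for other amino acids (circles). All 5 diamonds lie below the dashed line of equality, Fah nearest to it and Tat farthest, at 1.20 in replicate 2 and -0.29 in replicate 3.

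Ratios of FPKM within a sample do not depend on the scaling of that sample. Hpd exceeded Fah by 39.4, 33.4 and 38.8 times in C 8w and by 40.3, 37.3 and 36.0 times in C 8w + A 4w, which overlapped, but by 25.9 and 15.5 times in C 12w. Hpd exceeded Gstz1 by 2.52, 2.40 and 2.32 times in C 8w, by 1.40, 1.36 and 1.41 times in C 8w + A 4w and by 1.25 times in C 12w replicate 2, but was below Gstz1 in C 12w replicate 3, at a ratio of 0.987. The step blocked by NTBC thus stood lower against Gstz1 in every sample of both later groups. Gstz1 exceeded Fah by 13.9 to 16.7 times in C 8w, by 25.6 to 28.8 times in C 8w + A 4w, with ratios of 20.7 and 15.7 in C 12w. Hpd over Hgd was 2.0 to 2.2 in C 8w, 1.36 to 1.65 in C 8w + A 4w, then 1.49 and 1.47 in C 12w. Hpd over Tat was 1.70, 2.03 and 2.65 in C 8w, then 0.848, 3.10 and 2.34 in C 8w + A 4w, with 0.561 and 0.885 in C 12w. The ratios are given as a description and were not tested.

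Over the 8 samples, which differ by group as well as singly, Pearson's r of log2(FPKM + 1) was highest between Hpd and Hgd (0.97) and between Gstz1 and Fah (0.92), and Tat had r between 0.51 and 0.75 with the others. Among all genes tested, those most like Hpd were Apoc3 (0.987), Scnn1a (0.986) and Ctsh (0.985). Those most like Hgd were Mlycd (0.993), Tgds (0.991) and Gabbr2 (0.991), and those most like Fah were Hpn (0.995), Nlrp6 (0.995) and Rfng (0.994). Gstz1 was closest to Hs1bp3 (0.997), Tmem86b (0.990) and Pfkl (0.989), and Tat to Tdp2 (0.975), Trmo (0.966) and mt-Nd6 (0.964). Apoc3, the apolipoprotein C-III gene, ran from 1242 to 1490.0 FPKM in C 8w, from 366.7 to 418.8 in C 8w + A 4w, and was at 859.1 and 380.1 in C 12w. The points of these correlations share group, code series and cell composition, and no test was made.

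Tetrahydrobiopterin is the cofactor of enzymes that hydroxylate aromatic amino acids. Of 8 genes, those for its synthesis, recycling and regulation and the co-chaperone gene Dnajc12, 6 fell and 1 rose in C 8w + A 4w against C 8w, with a median of -0.54, where 39.4% of all tested genes were called and 14.1% were called lower. Qdpr, which recycles the cofactor, fell by 1.12 on the log2 scale in C 8w + A 4w and by 0.71 in C 12w, each against C 8w, and Pcbd1, which acts with it, fell by 0.84 in the former. The windows of Qdpr were shared with other genes in 12.0% of cases. Spr, the last enzyme of cofactor synthesis, rose by 0.61 in C 8w + A 4w against C 8w.

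Of the 8 genes, 5 fell and none rose in C 12w against C 8w, with a median of -0.64, beside 19.2% of all tested genes called and 6.98% called lower. Gch1, which starts cofactor synthesis, fell by 1.07, its feedback regulator Gchfr by 1.29, and Dnajc12 by 0.81. Gchfr was at 144.5, 140.6 and 156.7 FPKM in C 8w, then 122.0, 102.0 and 117.8 in C 8w + A 4w, with 60.8 and 58.1 in C 12w. Its C 12w samples were the lowest of all. Against C 12w, 4 of the 8 genes were higher in C 8w + A 4w, Dnajc12 by 1.04, Spr by 1.01, Gchfr by 0.92 and Gch1 by 0.56, and 1 was lower, Pts, another cofactor synthesis enzyme (-0.56), where 32.8% of all tested genes were called and 15.4% were called lower.

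Of 8 related aminotransferases, tautomerases and paralogs, 6 were tested. Of these, 2 rose and 3 fell in C 8w + A 4w against C 8w, that is 83.3%, beside 39.4% of all tested genes called and 14.1% called lower. Got1, a cytosolic aspartate aminotransferase that can also act on aromatic amino acids, had an FPKM of 115.6, 91.6 and 82.9 in C 8w, then 47.0, 21.6 and 27.2 in C 8w + A 4w, with 196.1 and 25.5 in C 12w. Like Tat it was high in C 12w replicate 2, and its difference from C 8w in C 8w + A 4w did not pass the test (-1.63 ± 0.63, adjusted p = 0.0701), although the groups did not overlap. Got2, the mitochondrial enzyme, rose by 1.18 and Mif, a tautomerase, by 2.74, but 25.6% and 50.9% of their windows were shared with other genes, as were 25.3% of those of Ddt (-0.51). Fahd2a, a paralog of Fah, fell from 8.06 ± 0.806 to 2.49 ± 0.458 FPKM (SD, n = 3 each), at -1.38 ± 0.13 with an adjusted p of 8.77e-05. Hpdl, a paralog of Hpd, was between 0.0984 and 1.07 FPKM in all samples and was not tested. Ddt (-1.01) and Fahd1 (-0.71) fell in C 12w against C 8w, where 19.2% of all tested genes were called.

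Of 9 genes for other uses of tyrosine, 5 were below 1 FPKM in all samples, among them Th, which makes dopa, and Pnmt at 0 throughout. The monoamine oxidases moved in opposite directions. Maoa was at 8.70, 7.49 and 12.7 FPKM in C 8w, then 49.5, 51.3 and 75.6 in C 8w + A 4w, with 17.4 and 31.4 in C 12w, and Maob was at 134.4, 136.2 and 116.0, then 47.7, 55.1 and 54.3, and then 82.7 and 84.9. Neither gene's groups overlapped. Maoa rose by 2.50 ± 0.27 (adjusted p = 0.00022) in C 8w + A 4w and by 1.23 ± 0.30 (0.0254) in C 12w, each against C 8w, while Maob was at -1.28 ± 0.12 (9.84e-05) and -0.61 ± 0.13 (0.0181). Of 6 aromatic amino acid transport genes, 4 were tested. Slc3a2, the heavy chain of several amino acid transporters, rose by 1.07 in C 8w + A 4w against C 8w, and Slc16a10, an aromatic amino acid transporter, was at -1.02 in C 12w against C 8w. Each was the 1 gene of the 4 called in that comparison, beside 39.4% and 19.2% of all tested genes. Against C 12w, 2 of the 4 were higher in C 8w + A 4w and none lower, beside 32.8% of all tested genes called.

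Succinylacetone, a derivative of fumarylacetoacetate, is known to inhibit Alad, an enzyme of heme synthesis. The FPKM of Alad was 116.5, 98.4 and 122.8 in C 8w, then 46.3, 67.8 and 45.9 in C 8w + A 4w, with 120.0 and 132.7 in C 12w. The C 8w + A 4w samples were below all others, while C 8w and C 12w overlapped. Alad fell by 1.08 against C 8w (adjusted p = 0.00191) and by 1.25 against C 12w (adjusted p = 0.0021). Of the 9 heme synthesis genes 5 (55.6%) fell and none rose in C 8w + A 4w against C 8w, beside 14.1% of all tested genes called lower. Urod and Ppox fell by 0.99 and 1.00, with 15.3% of the windows of Ppox shared with other genes. Alas1, which starts heme synthesis in the liver, was the 1 gene called in C 12w against C 8w, at -1.30 ± 0.15 (adjusted p = 0.00184), that is 11.1% of the list beside 19.2% of all tested genes. Against C 12w, 4 of the 9 fell in C 8w + A 4w and 1 rose, Alas1, by 1.475 (adjusted p = 0.000217). There 32.8% of all tested genes were called and 15.4% were called lower.

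Tat is induced by glucocorticoids and fasting. A list of 14 liver genes held others known for such regulation, as well as Nr3c1, the glucocorticoid receptor, and Hsd11b1, which reactivates glucocorticoids. Of the 14, 5 fell and none rose in C 8w + A 4w against C 8w, with a median of -0.29. These 35.7% were near the 39.4% of all tested genes called in either direction, while 14.1% of all tested genes were called lower. Sds, a serine dehydratase with 21.2% of its windows shared, was at -2.28 ± 0.55 (adjusted p = 0.0121) and Hsd11b1 at -1.86 ± 0.31 (adjusted p = 0.00224), while Nr3c1 was at -0.17 (adjusted p = 0.375). Against C 12w, Per1 and Fkbp5 were higher in C 8w + A 4w, by 1.16 and 0.95, and G6pc (-1.07) and Nr3c1 (-0.58) were lower, with a median of -0.13 over the list and 32.8% of all tested genes called. None of the 14 was called by limma in C 12w against C 8w, beside 19.2% of all tested genes, and 4 were lower and 1 higher at an unadjusted p under 0.05. Pck1, a gluconeogenic enzyme, was at 809.7, 613.3 and 580.3 FPKM in C 8w, then 488.5, 184.2 and 230.3 in C 8w + A 4w, with 489.0 and 154.8 in C 12w. It did not pass the test (-1.26, adjusted p = 0.0608). Its highest sample within each group was the same as for Tat, but Pck1 was picked after its values were seen. In C 12w, 10 of the 14 went the other way, as given above. The other 4 (28.6%) were higher in replicate 2, beside 39.2% of all tested genes. Tdo2 of tryptophan breakdown was at 304.0 FPKM in replicate 2 and 813.8 in replicate 3, and Tsc22d3, a glucocorticoid-induced gene, at 5.33 and 23.7. Sds, at 95.2 and 15.2, and Igfbp1 of the same list, at 281.0 and 167.9, were higher in replicate 2 like Tat.

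Enzymes for other amino acids also fell in C 8w + A 4w against C 8w. Of 30 genes, 24 (80.0%) fell and 1 rose, beside 14.1% of all tested genes called lower, and the median was -1.28 beside -1.26 for the 5 tyrosine enzymes. Gnmt, a glycine methyltransferase, was at -2.47 ± 0.26 (adjusted p = 0.000197), Mat1a, which makes S-adenosylmethionine, at -2.38 ± 0.23 (0.000138) and Haao of tryptophan breakdown at -2.34 ± 0.24 (0.000184). Ahcy rose by 2.60, but 68.7% of its windows were shared with other genes. Against C 12w, 17 of the 30 were lower and 1 higher, with a median of -0.99 beside -0.67, and of all tested genes 32.8% were called and 15.4% called lower. The counts were 7 lower and 3 higher in C 12w against C 8w, with a median of -0.46 beside -0.21, and of all tested genes 19.2% were called and 6.98% called lower. Prodh of proline breakdown was at -1.97 ± 0.25 (adjusted p = 0.00268), and Cbs and Ftcd rose by 0.90 and 0.77. A difference between the lists was not tested.

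**Figure D4:**
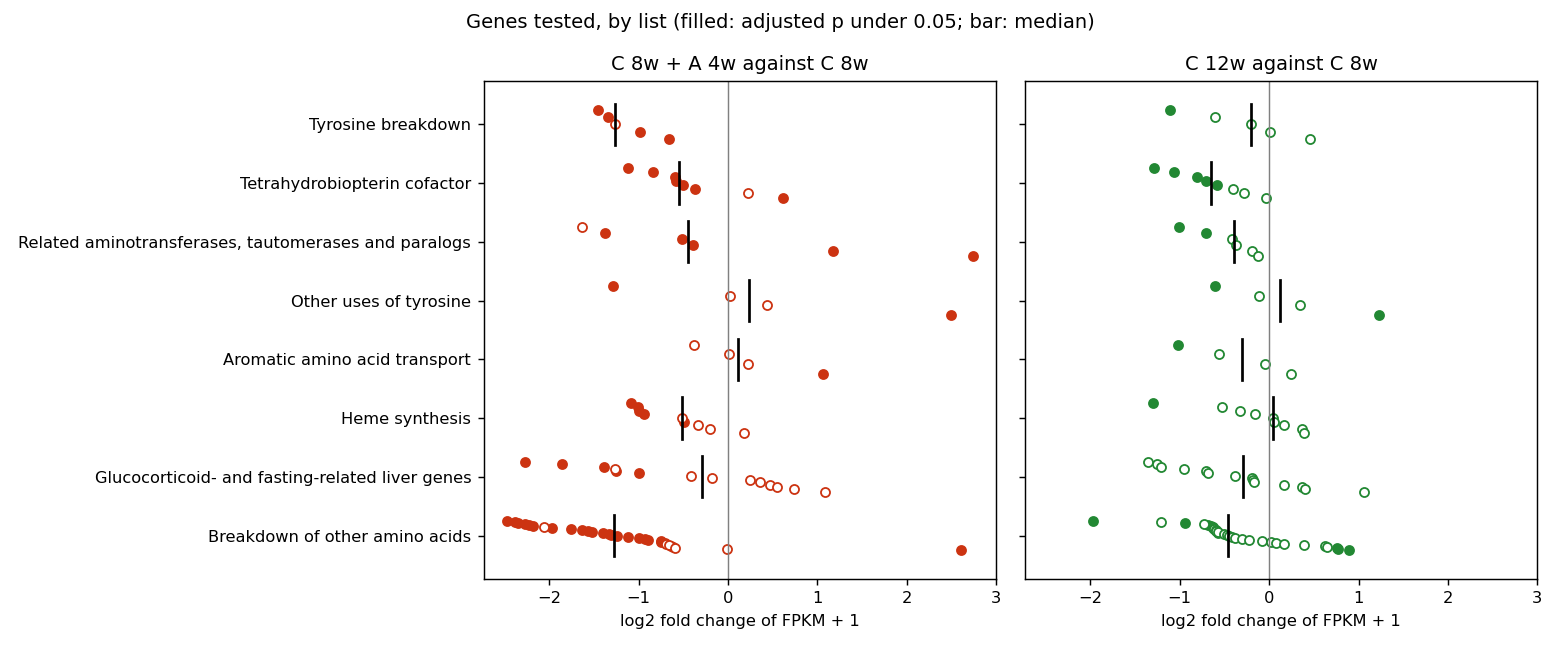
Log2 fold changes of FPKM + 1 (horizontal axes) of each tested gene, by list, in both comparisons with C 8w, which share the C 8w samples, with filled points for an adjusted p under 0.05 and bars for the list medians. The left panel has the medians of the tyrosine enzymes and of the 30 enzymes for other amino acids at -1.26 and -1.28, and the right panel has them at -0.21 and -0.46.

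The split of all calls into higher and lower changed with the scaling of the samples. In C 8w + A 4w against C 8w, 64.2% of all calls were higher as deposited, 49.4% after median-ratio scaling (52.5% when set on genes with little shared sequence), 53.5% after scaling to the total FPKM and 47.1% after quantile normalization. Under each of these 4 scalings, Hpd, Hgd, Gstz1 and Fah remained called lower in that comparison. The median log2 fold change of all tested genes was 0.12 as deposited, and 0.01, 0.03, 0.05 and -0.01 under the 4 scalings in that order. In C 12w against C 8w, where 63.6% of calls were higher as deposited, the share was 47.4%, 45.5%, 72.2% and 46.9%, and Hpd was called lower each time. In C 8w + A 4w against C 12w the share was 53.1% as deposited and 35.9% after scaling to the total. Hepatocyte marker scaling, chosen after the values were seen, made 96.4%, 94.4% and 76.7% of calls higher in C 8w + A 4w against C 8w, C 8w + A 4w against C 12w and C 12w against C 8w.

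**Figure D5:**
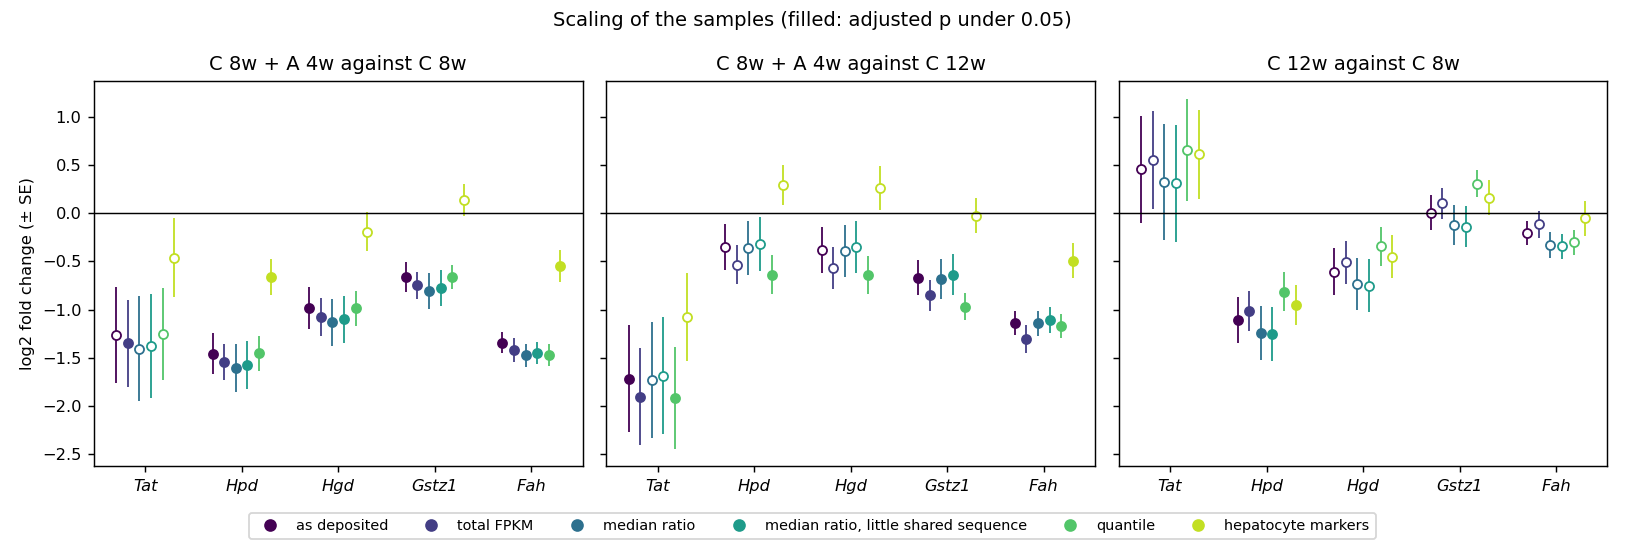
Log2 fold changes with SE (vertical axes) of the 5 enzymes in the 3 comparisons, with the values as deposited and under 5 other scalings of the samples (colours), filled where the adjusted p was under 0.05. In the left panel, hepatocyte marker scaling leaves Hpd at -0.66 and Fah at -0.55, called, and moves Gstz1 to 0.14, not called.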

How the data were processed

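Groups follow the treatment that GEO gives for each sample. The authors deposited FPKM values for 22504 Ensembl mouse gene identifiers in a single table, and 22314 of them could be given a symbol. The submitters' processing notes name Bowtie 0.12.2 and the build mm8, with no role. The quantifier, the annotation and the strand setting are not given in the sources used here. FPKM holds no counts, and neither depth nor counting error can be had from it.

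A gene entered the tests where 4 or more of the 8 samples reached an FPKM of 1, and was compared as log2(FPKM + 1), which understates the change of low genes. The tests were two-sided and used limma 3.58.1 under R 4.3.3, with lmFit and a trended eBayes, in one fit of the 3 groups, with Benjamini-Hochberg adjustment over all 10244 genes and a threshold of 0.05. The labels name separate samples but no animals, so p-values measure the spread between these samples. The fit was also run on simulated data, but no outcome is given here, so the calls cannot rest on it. For shared sequence, windows of 50 bases along the GENCODE M21 transcripts were looked up in all other genes, computed in Python 3.11.15, and the authors' annotation may differ. Promoter letters were searched in RefSeq sequences.

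The 5 enzymes are all named. From each pathway list, up to 4 genes per comparison were eligible, those with the largest fold change among genes called without overlap, besides Qdpr, Got1, Hpdl and Alad. A further gene of the fixed lists is not reported here and was left out of the counts of its list. For each enzyme the 3 genes of highest Pearson correlation are given. Other genes were named after their values were seen, Pts, Pck1, Tdo2, Mki67, Th, Pnmt and Nr3c1 among them. The enzymes, lists and tests were chosen with earlier results of these data known. Alternatives were another pseudocount, other floors, scalings, fits and samples left out, and a replicate block.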

Additional observations from a re-analysis of the deposited data

How the results depend on the processing

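FPKM has no read numbers, and 2 or 3 samples per group limit what could be detected. In C 8w + A 4w against C 8w, Hpd and Fah remained called lower under all 19 alternatives, and in C 8w + A 4w against C 12w Fah did. Hepatocyte marker scaling and the crossed replicate block were added after the values were seen, and the former moved the median of all genes to 0.92 in C 8w + A 4w against C 8w. It made the log2 fold change of Gstz1 there 0.14, and those of Hpd and Hgd against C 12w 0.30 and 0.26. In that comparison, with one sample left out, Hpd ran from -0.763 to 0.068 and Hgd from -0.787 to 0.025, the highest without C 12w replicate 2 and the lowest without C 12w replicate 3. In C 12w against C 8w, Gstz1 was at -0.12 after median-ratio scaling, -0.14 on genes with little shared sequence, and from -0.238 (without C 12w replicate 2) to 0.253 (without C 12w replicate 3) with one sample left out, and Tat ran from -0.286 to 1.20 without the same samples. The causes were not tested.

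Genes called numbered 4034, 3356 and 1962 in C 8w + A 4w against C 8w, C 8w + A 4w against C 12w and C 12w against C 8w. With a floor of 10 FPKM fewer genes were tested, and 1844, 1625 and 851 were called. A limit of 1 on the log2 fold change left 1128, 1177 and 533. Hepatocyte marker scaling gave 8477 and 6245 in the first 2 comparisons. With only the groups compared in the fit, 1996 were called in C 8w + A 4w against C 12w. Without one sample in turn the counts ran from 2460 to 5108, from 2454 to 4142 and from 676 to 3667, the lowest of the first and the last without C 8w replicate 1. In C 12w against C 8w, 934 were called without C 8w replicate 2, 718 without C 8w replicate 3 and 3667 without C 12w replicate 2.

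Of the 5 enzymes, 4, 3 and 1 were called. In C 8w + A 4w against C 8w there were 5 after total FPKM scaling and 5 with only the groups compared, where Tat was called too, 2 under hepatocyte marker scaling, 2 with the fold change limit, and between 3 and 5 without one sample. In C 8w + A 4w against C 12w there were 5 after quantile normalization, 1 with only the groups compared, 1 under hepatocyte marker scaling, and between 1 and 5 without one sample. In C 12w against C 8w limma called 0 with only the groups compared, where Hpd had an adjusted p of 0.051 and was the 1 enzyme at an unadjusted p under 0.05, and between 0 and 2 without one sample.

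The replicate numbers 2 and 3 are shared by C 8w and C 12w, and no source says that they pair the samples. The difference between numbers 2 and 3 correlated at -0.189 between the groups across 10244 genes, which are not independent. With the number as a replicate block in those 4 samples, limma called 252 genes and 0 of the 5 enzymes, with 1 at an unadjusted p under 0.05 (Hpd -1.04, adjusted p = 0.238). With crossed numbers, the replicate block gave 16 genes and 0 enzymes, with 1 at an unadjusted p under 0.05.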
